A study of Mus musculus with 24 samples.

Results

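Brown adipose tissue (BAT) releases proteins that act on its own vessels and nerves and on distant organs. The 9 genes described here encode such factors in mice: Pltp, Angptl4, Igf1, Nrg4, Vegfa, Bmp8b, Fgf21, Il6 and Gdf15. They were chosen by name, and a gene was taken from the rows of the deposited array table that carry its symbol alone, the brightest row standing for it. Of the 9 genes, 8 had such a row, 1 row each, among 30142 genes with a single symbol. Gdf15, a stress hormone read in the hindbrain by the receptor Gfral, is not analysed here.

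Total RNA from 20 mg of BAT per extraction and from dissected ventromedial hypothalamus (VMH) had been hybridised to 24 Affymetrix arrays, 3 in each of 8 groups. The 4 BAT groups were Gfap-Bmal1 cKO mice on a high fat diet (cKO HFD), control mice on the high fat diet (control HFD), Gfap-Bmal1 cKO mice on a standard diet (cKO SD) and control mice on the standard diet (control SD), each kept on its diet for 16 weeks. In the cKO, the core clock gene Bmal1 is deleted under the control of Gfap, which marks astrocytes, so the deletion was not aimed at brown adipocytes. The sample titles call the control mice WT. Age, sex, strain and any further detail of the control genotype are not given in the labels used here. Nothing in the labels says whether the 3 arrays in a group are different animals, so a p-value here covers the array-to-array spread alone, and that spread may be technical.

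These factors fall into a few kinds. Pltp and Angptl4 act on circulating lipid: phospholipid transfer protein moves phospholipids between lipoproteins, and Angptl4 inhibits lipoprotein lipase, the enzyme that frees fatty acids from triglyceride at the vessel wall. Igf1, Nrg4 and Vegfa are growth factors that signal through receptor tyrosine kinases. Bmp8b, Fgf21 and Il6 are signals that mouse brown fat makes more of under cold or stress, Bmp8b and Fgf21 being known for promoting heat production.

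The promoters of 3 of the genes are shown for reference: Pltp, the only one of these genes with a diet difference past the test; Igf1, whose difference with diet ran the other way; and Fgf21, whose promoter held the most of the searched motifs although its signal was dim. Each is the 250 bases before the start in the RefSeq promoter table of build GRCm38.p6, written 5′ to 3′ on the gene's strand, with motif matches in capitals. Pltp lies on the minus strand at chr2:164857709-164857958, Igf1 on the plus strand at chr10:87860861-87861110 and Fgf21 on the minus strand at chr7:45615491-45615740. The Igf1 window lies inside the gene's own span, which begins at 87858265, so it precedes a start within the gene.
Pltp: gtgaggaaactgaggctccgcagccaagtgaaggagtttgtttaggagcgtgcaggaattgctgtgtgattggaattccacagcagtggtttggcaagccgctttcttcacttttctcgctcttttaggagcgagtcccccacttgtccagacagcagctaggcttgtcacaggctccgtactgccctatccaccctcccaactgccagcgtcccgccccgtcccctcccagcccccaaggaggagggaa
Igf1: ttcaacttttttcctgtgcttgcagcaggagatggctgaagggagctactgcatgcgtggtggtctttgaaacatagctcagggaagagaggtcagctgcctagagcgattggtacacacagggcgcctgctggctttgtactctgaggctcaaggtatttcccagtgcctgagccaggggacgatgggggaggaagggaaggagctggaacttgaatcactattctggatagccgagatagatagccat
Fgf21: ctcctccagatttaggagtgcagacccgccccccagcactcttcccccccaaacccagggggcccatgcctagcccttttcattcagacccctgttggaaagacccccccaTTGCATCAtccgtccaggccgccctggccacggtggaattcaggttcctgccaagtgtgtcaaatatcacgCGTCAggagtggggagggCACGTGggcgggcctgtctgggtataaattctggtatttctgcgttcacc

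The following 4 short motifs were searched on both strands: TGATGNAA (the core of the amino acid response element bound by ATF4 complexes), TGACG (the core of the cyclic AMP response element), ACGTG (the core of the hypoxia response element) and CACGTG (the E-box bound by CLOCK and BMAL1), which contains ACGTG. Of 32851 promoters of the same length in the table, 3.45% held TGATGNAA, 17.8% TGACG, 16.6% ACGTG and 6.02% CACGTG. The Fgf21 promoter held TTGCATCA, a reverse match to TGATGNAA, from 139 to 132 bases before the start, CGTCA from 68 to 64 bases before it and CACGTG from 50 to 45 bases before it. Pltp and Igf1 held none of the letters in this window. Among the others, Bmp8b and Nrg4 held ACGTG and Il6 held TGACG. Of 2 entries of Vegfa, 1 held TGACG and ACGTG overlapping each other. That entry lies inside the gene's span, and the entry at the gene's 5′ end held none. Of 2 entries of Gdf15, 1 held CACGTG from 83 to 78 bases before the start. The Gdf15 entry with the match and the Bmp8b entry also lie inside the spans of their genes. The table matched 8 of the 9 genes and had no entry for Angptl4. These matches describe letters, not binding sites.

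The 12 BAT arrays were not alike in their signals of muscle and brown fat markers, and this precedes every result. Ucp1, the uncoupling protein that defines brown adipocytes, sat at the table's ceiling of 19.93 (log2 signal) on 9 arrays, with 8.87 on control SD array 1, 16.30 on cKO SD array 2 and 19.31 on cKO SD array 3. The mean log2 signal of 20 skeletal muscle markers, all 20 above the filter, was 5.71, 10.11 and 12.62 on the cKO HFD arrays and 6.84, 5.70 and 9.30 on the control HFD arrays. It was 14.31, 16.94 and 16.23 on the cKO SD arrays and 16.88, 5.66 and 16.11 on the control SD arrays. Muscle markers were thus lower on the HFD arrays than on 5 of the 6 SD arrays, control SD array 2 being as low as the lowest HFD arrays; 0 of 20 passed the test for any difference. The mean log2 signal of 16 brown adipocyte markers lay between 11.75 and 12.53 in cKO HFD against 9.62 and 12.01 in cKO SD, and between 12.39 and 12.45 in control HFD against 8.19 and 12.60 in control SD. Of these 16 markers, 14 had positive HFD minus SD differences in each genotype (median 1.06 in cKO and 1.5 in control mice) and 0 passed, and their part in the diet differences of Pltp, Angptl4, Igf1 and Nrg4 was not tested. In bulk RNA, fewer cells of a type and less RNA per cell cannot be told apart. Pearson's r between BAT arrays over the 17124 genes tested, defined below, ran between 0.891 and 0.996. Arntl, which encodes Bmal1, had 6.87, 7.07 and 6.47 on the cKO HFD arrays and 6.29, 6.41 and 6.69 on the control HFD arrays, and 6.16, 5.80 and 7.24 on the cKO SD arrays against 5.84, 5.83 and 6.34 on the control SD arrays; it was not lower in cKO, and whether its probes lie in the deleted part is not known here.

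A gene was tested where its mean over the 12 BAT arrays reached 4.1275, the median of that mean over all features, which left 17124 genes. Pltp, Angptl4, Igf1, Nrg4 and Vegfa passed, while Bmp8b, Fgf21 and Il6 lay below. Differences are given on the log2 scale of the deposited signals and came from limma's moderated test over all 12 arrays, with Benjamini-Hochberg adjustment over the 17124 genes and a threshold of 0.05. Signals of different genes are not set against each other, since each has its own probes.

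**Figure D1:**
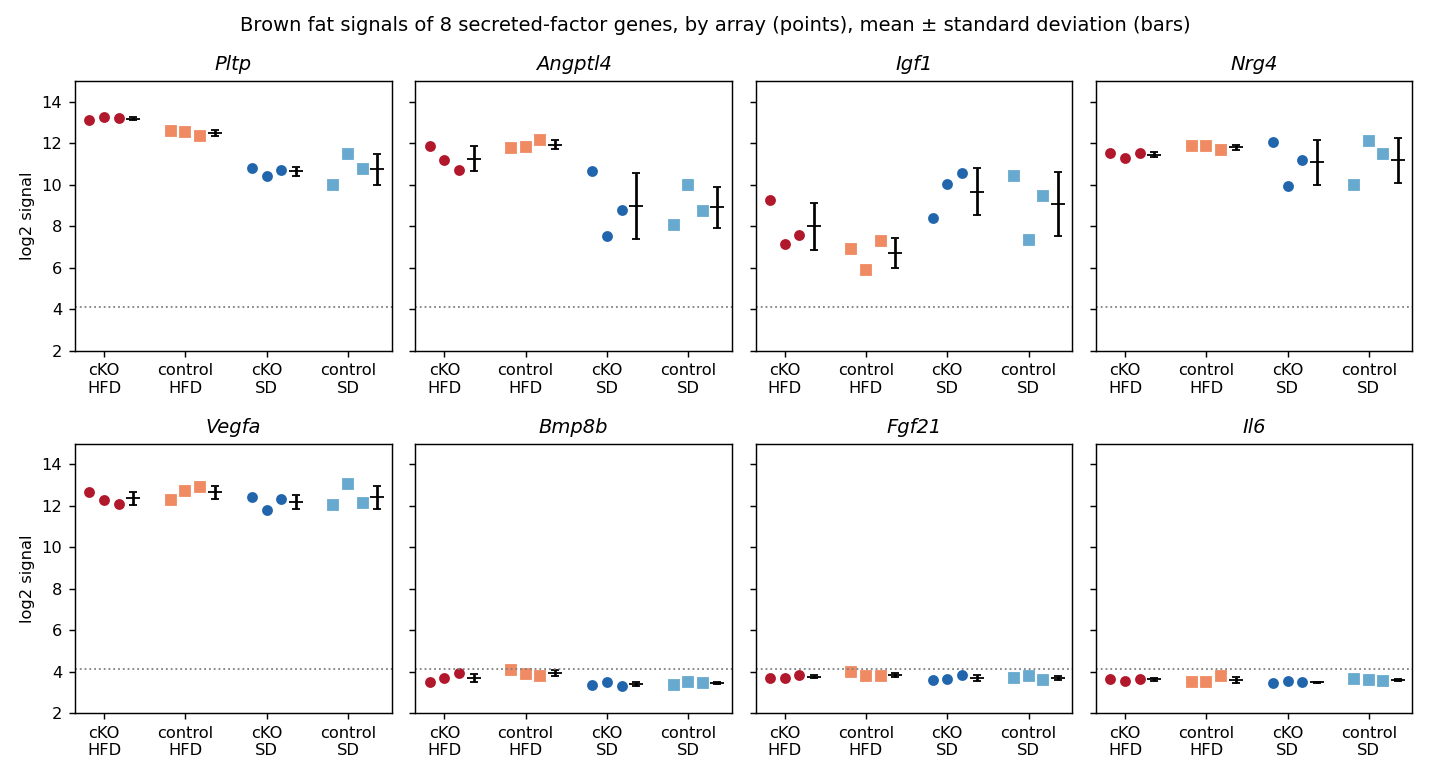
Log2 signal (y axis) of each of the 8 genes on each BAT array (points) by group of genotype and diet (x axis), with the mean ± standard deviation of the 3 arrays beside them; the dotted line is the filter of 4.1275. Pltp and Angptl4 sat higher in both HFD groups than in the SD group of the same genotype, while Bmp8b, Fgf21 and Il6 stayed below the line on every array.

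High fat diet was compared with standard diet within each genotype. Of the 5 tested genes, 1 rose in control mice, where 0.771% of all tested genes passed (132 genes; 0.625% rose and 0.146% fell), and 0 passed in cKO mice, where 0% of all genes did. The arrays of the diets did not overlap for 2 higher genes and 1 lower gene of the 5 in control mice, against 14.3% higher and 10.8% lower of all genes (25.2% together). In cKO mice they did not overlap for 2 higher genes and no lower one, against 15.5% higher and 13.5% lower of all genes (29% together). At an unadjusted p under 0.05 stood Pltp, Angptl4 and Igf1 in control mice, against 23% of all genes, and Pltp and Angptl4 in cKO mice, against 22.9% of all genes.

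Pltp signal was 13.11, 13.25 and 13.21 on the cKO HFD arrays, against 10.83, 10.40 and 10.69 on the cKO SD arrays. In control mice it was 12.60, 12.56 and 12.35 on HFD, against 9.97, 11.48 and 10.78 on SD. Every HFD array was above every SD array of both genotypes, and the HFD arrays of a group lay close together. Pltp rose in control HFD mice by 1.76 ± 0.303 (SE; 95% interval 1.08 to 2.44; n = 3 and 3; limma adjusted p = 0.0382), a 3.39-fold difference. In cKO mice the HFD minus SD difference was 2.55 ± 0.303 (1.87 to 3.23; 5.86-fold), with a limma unadjusted p = 9.17e-06, rank 2 among 17124 genes, and an adjusted p = 0.0665 that missed the threshold. The interaction, the difference between these differences, was 0.79 ± 0.428 (limma adjusted p = 1).

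The Pltp call depended on which arrays were in the fit, more than its size did. In control mice the difference stayed between 1.37 and 2.13 when single arrays were left out. The call held without cKO SD array 1 (limma adjusted p = 0.044) or control SD array 2 (0.00886) and was lost without any 1 of the other 10 BAT arrays (0.0517 to 0.178). Control SD array 2 was the only SD array of low muscle score. Without it, 2716 of all genes passed in control mice, against 132 in the main fit. In cKO mice the difference stayed between 2.43 and 2.65, and it passed without cKO SD array 1 (limma adjusted p = 0.0177), control SD array 1 (0.00442) or control SD array 2 (0.00935). With the muscle score as a covariate the HFD minus SD difference was 2.06 in cKO mice (limma adjusted p = 0.343) and 1.32 in control mice (0.156). Without the 2 arrays of lowest Ucp1 it was 2.43 in cKO mice (0.0296) and 1.37 in control mice (0.11).

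Pltp was lower where muscle markers were higher, with Pearson's r = -0.737 over the 12 arrays and -0.735 once group means were removed, as a description. Control SD array 2, with a muscle score of 5.66, had a Pltp signal of 11.48, the highest of the SD arrays and below the control HFD arrays. The cKO HFD array 3, with a muscle score of 12.62, had 13.21. The part of muscle content in the Pltp difference was not tested beyond the covariate fit. Macrophage and leukocyte markers were also higher on the HFD arrays, and Cd68 and Itgax, 2 of 10 tested, rose in control mice. Both calls were lost with array weights, the replicate block, the muscle covariate or without the 2 arrays of lowest Ucp1. They were also lost without control HFD array 1 alone or control SD array 3 alone. Under each of these settings 0 of all genes passed. The mean signal of the macrophage and leukocyte markers lay between 6.44 and 7.26 in cKO HFD against 5.92 and 6.18 in cKO SD. In control mice it lay between 6.32 and 6.81 on HFD against 5.39 and 6.06 on SD. The part of these markers in the Pltp difference was not tested.

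**Figure D2:**
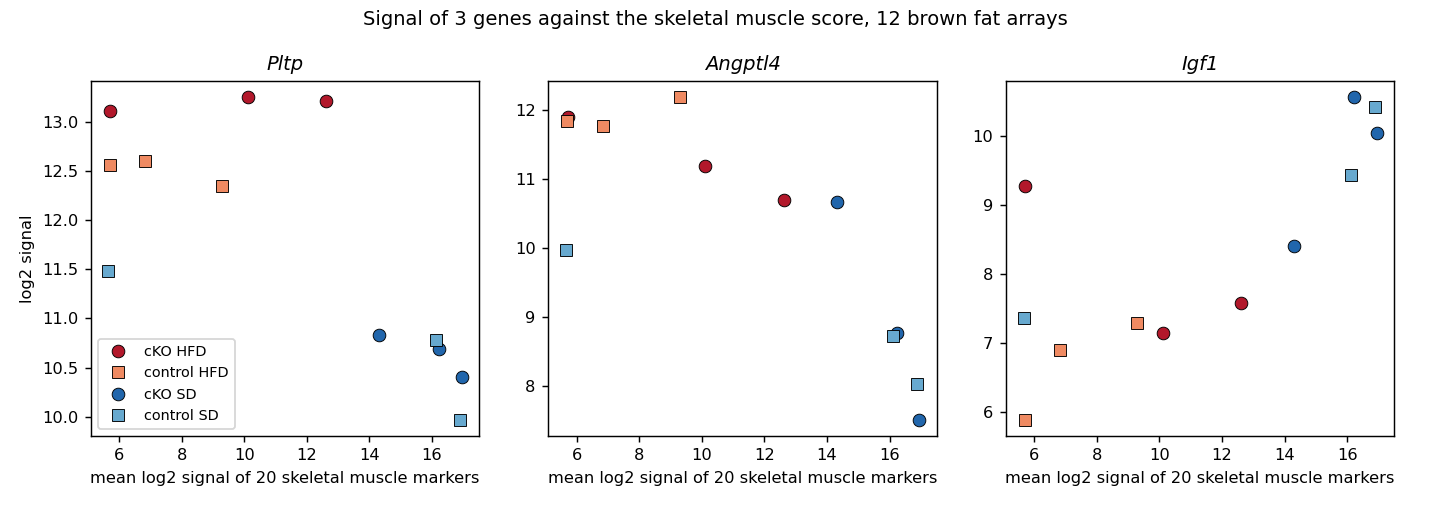
Log2 signal (y axes) of Pltp, Angptl4 and Igf1 against the mean log2 signal of 20 skeletal muscle markers (x axes) on the 12 BAT arrays, coloured by group. Control SD array 2, at the left of each panel with a muscle score of 5.66, had Pltp at 11.48 and Angptl4 at 9.97, each the highest of the control SD arrays and below the control HFD arrays.

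Angptl4 signal was 11.89, 11.19 and 10.70 on the cKO HFD arrays, against 10.66, 7.52 and 8.77 on the cKO SD arrays. In control mice it was 11.76, 11.84 and 12.18 on HFD, against 8.04, 9.97 and 8.73 on SD. The groups of each genotype did not overlap, by the narrowest margin in cKO mice, and the SD arrays were widely spread. The HFD minus SD difference was 2.28 ± 0.733 in cKO mice (95% interval 0.64 to 3.92; 4.84-fold; limma adjusted p = 0.138) and 3.01 ± 0.733 in control mice (1.37 to 4.65; 8.07-fold; limma adjusted p = 0.0845). It passed in cKO mice without cKO SD array 1 (3.11; limma adjusted p = 0.0229), and in control mice without cKO SD array 1 (0.044) or control SD array 2 (3.54; 0.0221). Without control SD array 2, 2716 of all genes passed in control mice. With the muscle score as a covariate the difference was 1.19 in cKO mice and 2.05 in control mice. Angptl4 was also lower where muscle markers were higher (Pearson's r = -0.817 over the 12 arrays and -0.656 once group means were removed), and the part of muscle content in its difference was not tested beyond the covariate fit.

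Igf1 signal was 9.27, 7.14 and 7.58 on the cKO HFD arrays, against 8.41, 10.04 and 10.56 on the cKO SD arrays. In control mice it was 6.90, 5.89 and 7.29 on HFD, against 10.42, 7.36 and 9.44 on SD. Igf1, the growth factor that mediates many actions of growth hormone, was the one tested gene of the set with lower means on HFD in both genotypes. The difference was -1.68 ± 0.872 in cKO mice, where the groups overlapped (95% interval -3.63 to 0.28; limma adjusted p = 0.272). It was -2.38 ± 0.872 in control mice, where the highest HFD array lay just under the lowest SD array (-4.33 to -0.43; limma adjusted p = 0.158). That lowest SD array was control SD array 2, without which the difference was -3.24 (limma adjusted p = 0.0304). It was also the only SD array of low muscle score (5.66). Without it every SD array had a higher muscle score than every HFD array. Of all genes, 2716 then passed in control mice, against 132 in the main fit. With the muscle score as a covariate the HFD minus SD difference of Igf1 was -0.70 in cKO mice and -1.52 in control mice. Igf1 was higher where muscle markers were higher (Pearson's r = 0.761 over the 12 arrays and 0.493 once group means were removed). The part of muscle content in the Igf1 difference was not tested beyond the covariate fit. Fibroblast and preadipocyte markers, 8 of 8 tested, had negative HFD minus SD differences in both genotypes (median -0.56 in cKO and -0.53 in control mice, against 0.044 and 0.046 over all genes), with 0 past the test; their part in the Igf1 difference was not tested.

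Nrg4, a ligand of Erbb3 and Erbb4 that in mice acts on the liver, had 11.55, 11.31 and 11.51 on the cKO HFD arrays, against 12.08, 9.96 and 11.18 on the cKO SD arrays. In control mice it had 11.85, 11.88 and 11.67 on HFD, against 9.99, 12.10 and 11.48 on SD. The lowest values were those of the arrays lowest in Ucp1, cKO SD array 2 and control SD array 1, and the HFD arrays fell within the SD range. The HFD minus SD difference was 0.38 ± 0.572 in cKO mice (limma adjusted p = 0.711) and 0.61 ± 0.572 in control mice (0.546), neither larger than the spread between arrays. Without the 2 arrays of lowest Ucp1 the difference was -0.17 in cKO mice and 0.01 in control mice.

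Vegfa, the growth factor of blood vessels, had 12.68, 12.29 and 12.11 on the cKO HFD arrays, against 12.43, 11.81 and 12.35 on the cKO SD arrays. In control mice it had 12.31, 12.73 and 12.92 on HFD, against 12.05, 13.06 and 12.12 on SD. The groups overlapped in both genotypes, and the highest value of all was that of control SD array 2. The HFD minus SD difference was 0.16 (95% interval -0.51 to 0.83) in cKO mice and 0.24 (-0.42 to 0.91) in control mice, so a change of more than 1 log2 unit in either direction lay outside both intervals; limma adjusted p was 0.769 in cKO and 0.653 in control mice.

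The 3 dim genes were fitted without the filter, with adjustment over all genes of the table, and are described with that limit. Bmp8b had 3.52, 3.70 and 3.93 on the cKO HFD arrays, against 3.39, 3.51 and 3.34 on the cKO SD arrays. In control mice it had 4.09, 3.89 and 3.81 on HFD, against 3.39, 3.50 and 3.48 on SD. The groups of each genotype did not overlap, but all values were under the filter. Of the tested genes, a set without Bmp8b, 15.5% were higher without overlap in cKO mice and 14.3% in control mice. No such share was computed over the dim genes. The difference was 0.30 ± 0.112 in cKO mice (limma adjusted p = 0.23) and 0.47 ± 0.112 in control mice (0.113). Bmp8b also has a near-identical neighbour, Bmp8a, so its signal may not be its own.

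Fgf21 ranged from 3.60 to 3.98 over the 12 arrays, with HFD minus SD differences of 0.04 in cKO and 0.16 in control mice. Il6 had 3.68, 3.57 and 3.67 in cKO HFD and 3.52, 3.51 and 3.79 in control HFD, with 3.48, 3.54 and 3.50 in cKO SD and 3.64, 3.61 and 3.58 in control SD. Its differences with diet were 0.13 in cKO and -0.01 in control mice. In cKO mice every HFD array had more Il6 than every SD array. Of the tested genes, a set without Il6, 15.5% were higher in that way. All these differences of Fgf21 and Il6 had limma adjusted p of 0.418 or more. At these signals no difference passed the test, which does not show that the transcripts were absent.

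**Figure D3:**
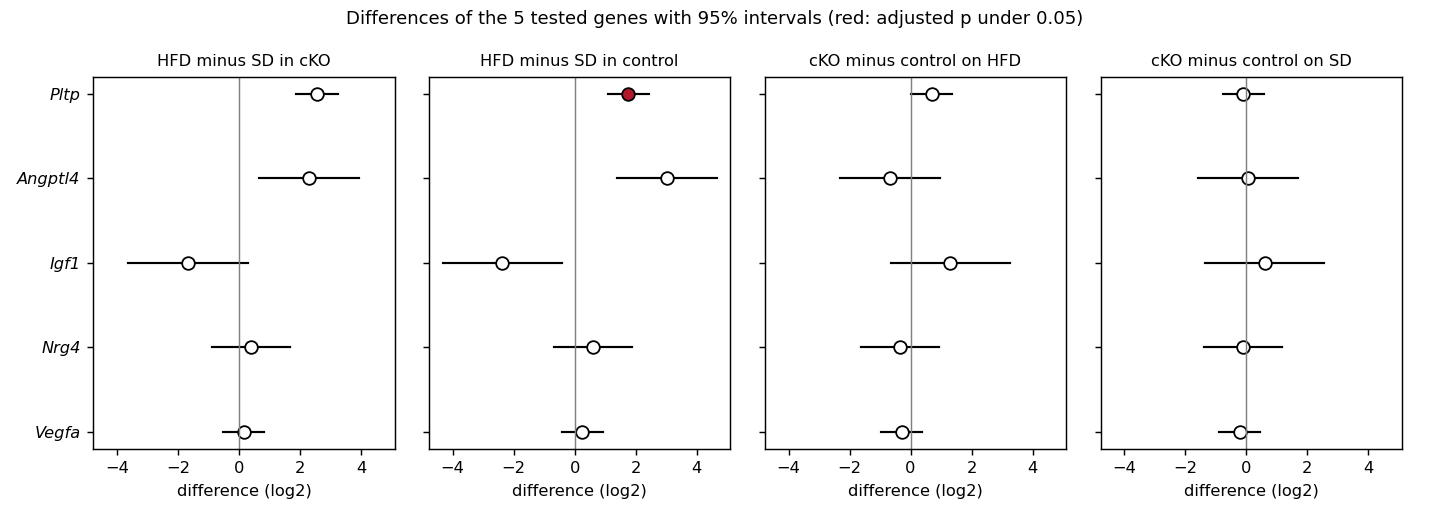
Differences in log2 signal (x axes, with 95% intervals) of the 5 tested genes in 4 comparisons of the BAT groups. The interval of Pltp ran from 1.87 to 3.23 for HFD minus SD in cKO mice and from 1.08 to 2.44 in control mice, where the red fill marks an adjusted p under 0.05.

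The same genes were compared between cKO and control mice on each diet, the question being whether loss of the astrocyte clock was accompanied by a change in the RNA of these factors. None of the 5 tested genes passed limma's test on HFD, on SD, averaged over diets or in the interaction, where 0% of all 17124 genes passed in each. Pltp on HFD was the only one with an unadjusted p under 0.05, a level reached by 8.26% of all genes in that comparison, 3.56% on SD, 8.73% in the average and 3.79% in the interaction.

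On HFD, all 3 cKO arrays had more Pltp than all 3 control arrays, and the difference was 0.69 ± 0.303 (95% interval 0.01 to 1.37; 1.61-fold; limma unadjusted p = 0.0471, adjusted p = 0.602). It was 0.86 with the muscle score as a covariate. Under the alternatives other than leaving out single arrays, its limma adjusted p ran from 0.0724 to 0.674. The SE was shared by all 4 BAT groups. The Pltp standard deviation was 0.0704 in cKO HFD and 0.13 in control HFD, against 0.216 in cKO SD and 0.753 in control SD. Nrg4 was lower on all 3 cKO HFD arrays than on the control HFD arrays, by a margin small against the spread in the fit (-0.34 ± 0.572; limma adjusted p = 0.929). That spread was shared by all BAT groups and was widest on the standard diet. The Nrg4 standard deviation was 0.125 in cKO HFD and 0.116 in control HFD, against 1.06 in cKO SD and 1.09 in control SD. Of all genes, 7.33% were higher and 12.5% lower on every cKO HFD array, 19.8% together. Angptl4 differed by -0.67 ± 0.733 (limma adjusted p = 0.876), Igf1 by 1.30 ± 0.872 (0.752) and Vegfa by -0.29 ± 0.299 (0.859), all with overlapping arrays.

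On SD the cKO and control arrays of all 5 tested genes overlapped, whereas 3.53% of all genes were higher and 3.71% lower on every cKO array, 7.24% together. The differences were -0.10 for Pltp, 0.07 for Angptl4, 0.60 for Igf1, -0.12 for Nrg4 and -0.21 for Vegfa, with limma adjusted p of 0.982 or more. The intervals were wide for Angptl4 (-1.57 to 1.71), Igf1 (-1.35 to 2.55) and Nrg4 (-1.40 to 1.16), so a difference of 1 log2 unit in either direction lay within them. The skeletal muscle markers had a median cKO minus control difference of 2.26 on HFD and 3.03 on SD, with 20 of 20 positive and 0 passing; their part in the genotype differences was not tested beyond the covariate fit. Among the dim genes, Il6 was lower on all 3 cKO SD arrays, by 0.10 (95% interval -0.28 to 0.08; limma adjusted p = 0.998).

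The receptors and co-receptors of these factors were read from a list of 28 genes, of which 24 were tested. None passed limma's test in any of the 6 comparisons. Their median HFD minus SD difference was -0.04 in cKO and -0.07 in control mice, against 0.044 and 0.046 over all genes, and their median cKO minus control difference was 0.08 on HFD and 0.13 on SD, against -0.016 over all genes on each diet. A list of 31 binding partners, substrates and relatives had 21 tested genes, of which 0 passed; its median was -0.06 and -0.11 for diet in cKO and control mice, and 0.05 and 0.07 for genotype on HFD and SD.

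Vegfa signals through receptors on endothelium, which were described beside it. Kdr, its main signalling receptor on endothelium, averaged 13.12 ± 0.641 in control HFD, against 10.96 ± 1.23 in control SD (standard deviation, n = 3 each), a difference of 2.16 (limma adjusted p = 0.0942). On HFD, cKO arrays averaged 11.43 ± 0.12, against 13.12 ± 0.641 for control arrays, a cKO minus control difference of -1.70 with no overlap (95% interval -2.96 to -0.43; limma unadjusted p = 0.0138, adjusted p = 0.55). Flt1, the other receptor, differed by -0.55 in the same comparison. Without control SD array 2 the HFD minus SD difference in control mice passed for both, at 2.87 for Kdr (limma adjusted p = 0.0122) and 1.39 for Flt1 (0.013). That array was the only SD array of low muscle score, and without it 2716 of all genes passed in that comparison. Endothelial markers, a list of 10 that includes Kdr itself, ran alongside, so Kdr was not set against an independent list. Their mean signal was 8.57 to 8.61 in cKO HFD, 9.35 to 10.24 in control HFD, 8.02 to 8.36 in cKO SD and 7.87 to 8.91 in control SD. Of 10 such markers, Pecam1, Cldn5 and Eng rose in control HFD against control SD, and 10 of 10 had negative cKO minus control differences on HFD, with 0 passing. Those 3 calls were lost with array weights, the replicate block, the muscle covariate or without the 2 arrays of lowest Ucp1. They were also lost without control HFD array 1 alone or control SD array 3 alone. Under each of these settings 0 of all genes passed. The part of endothelial content in the Kdr and Flt1 values was not tested.

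None of the partners of Angptl4 passed the test. Lpl, the lipase that Angptl4 inhibits, had HFD minus SD differences of -0.20 in cKO (limma adjusted p = 0.359) and -0.46 in control mice (0.105). Gpihbp1, which carries the lipase across capillary endothelium, had 0.03 in cKO (0.971) and 1.24 in control mice (0.106), and its cKO minus control difference on HFD was -1.29 (95% interval -2.07 to -0.51; limma adjusted p = 0.48), with no overlap. Without control SD array 2, the only SD array of low muscle score, its diet difference in control mice was 1.56 and passed (limma adjusted p = 0.0212). In that fit 2716 of all genes passed. Of the partners of Igf1, its receptor Igf1r had diet differences of -0.43 in cKO and -0.23 in control mice, and the binding protein Igfbp4 -0.98 and -1.69, none past the test. Of the partners of Fgf21, Klb, the co-receptor that Fgf21 needs, had 1.30 in cKO and 0.33 in control mice and Fgfr1 -0.64 and -0.43, none past the test. Erbb4, Bmpr2 and Il6st, receptors of Nrg4, Bmp8b and Il6, passed in no comparison.

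Other factors reported as secreted by brown fat formed a list of 27 genes, 23 of them tested. Of these, 2 rose on HFD in control mice, Edn1, a vasoconstrictor peptide, and Fgf9, and 0 passed in the other 5 comparisons. Edn1 averaged 6.17 ± 0.192 in control HFD, against 5.41 ± 0.016 in control SD (standard deviation, n = 3 each), a difference of 0.76 ± 0.143 (SE; limma adjusted p = 0.0496). Fgf9 averaged 5.72 ± 0.348 in control HFD, against 4.79 ± 0.125 in control SD, a difference of 0.93 ± 0.168 (limma adjusted p = 0.04), and 0.78 in cKO mice (0.103), which passed without cKO SD array 1 (0.0484). As for Pltp, both calls held without cKO SD array 1 or control SD array 2 and were lost without any 1 of the other 10 arrays (limma adjusted p of 0.0524 to 0.184 for Edn1 and 0.0514 to 0.177 for Fgf9). Of the 10 other alternatives each call held in 4. Both were lost with only the groups compared, array weights, the replicate block, the muscle covariate or without the 2 arrays of lowest Ucp1, Edn1 also without the filter and Fgf9 also with a pseudocount of 16. A list of 25 transcription factors and stress genes that act upstream of the factors includes Atf4, Ppara, Hif1a and Pparg. Of these 25, 21 were tested and 0 passed in any comparison. The median diet difference was 0.08 in cKO and 0.44 in control mice, against 0.044 and 0.046 over all genes. The part of muscle and brown fat content in these medians was not tested.

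**Figure D4:**
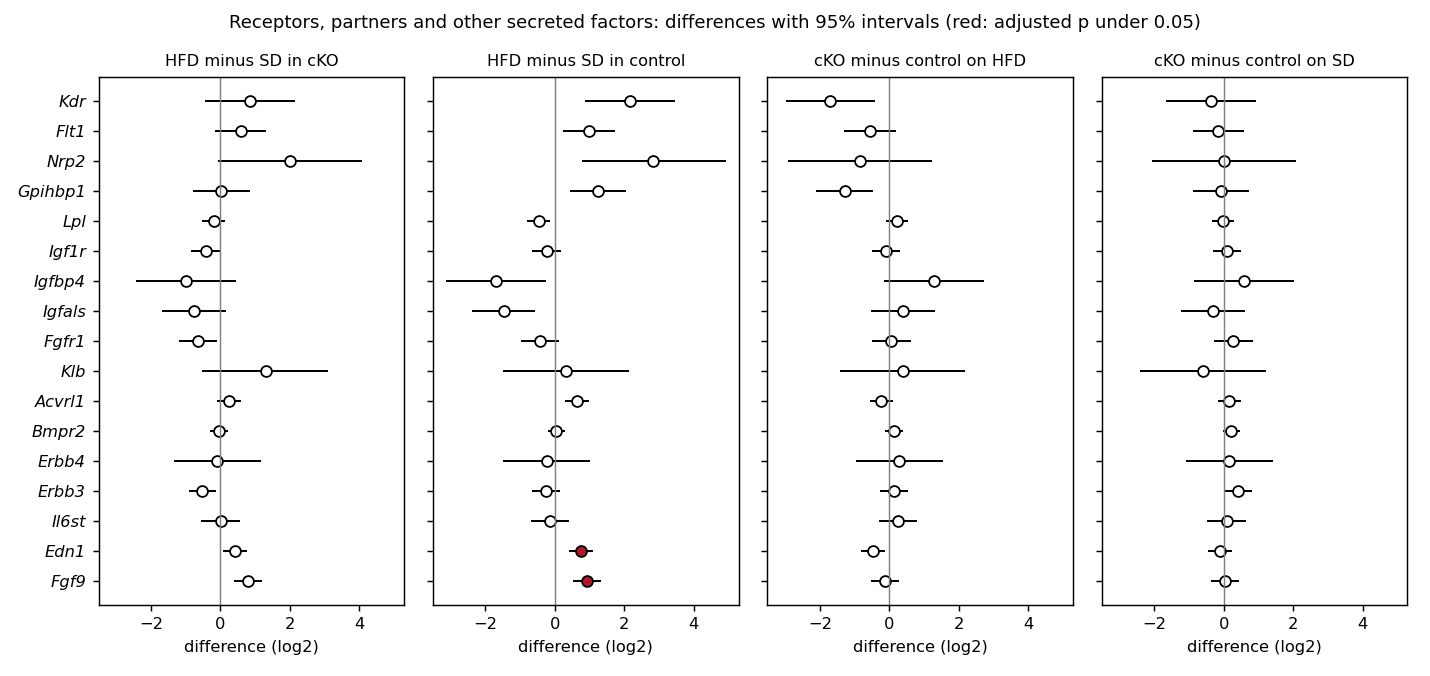
Differences in log2 signal (x axes, with 95% intervals) of receptors, partners and other secreted factors in 4 comparisons of the BAT groups. Edn1 and Fgf9 (red) passed the test for HFD minus SD in control mice, and Kdr lay at -1.70 and Gpihbp1 at -1.29 for cKO minus control on HFD.

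The genes most like each factor over the 12 BAT arrays were named by Pearson's r. This is a description over arrays that differed in their muscle and brown fat markers. For Pltp they were Mark1 (r = 0.951), Plscr2 (0.946) and Lpin2 (0.945), and once group means were removed the values were 0.817, 0.587 and 0.713. For Angptl4 they were Gpx1 (0.976), Clock (0.975) and Plcb3 (0.969). For Igf1 they were Rgma (0.968), Ptprf (0.965) and Ranbp2 (0.961). Nrg4 ran with Prkar2b (0.978), Cd274 (0.969) and Ntrk3 (0.962), and Vegfa with Khnyn (0.938), Cinp (0.922) and Rbmxl1 (0.917). For these 4 genes r was 0.904 or more once group means were removed.

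In the 12 VMH arrays, described within that tissue only, Vegfa ranged from 8.82 to 9.23, Igf1 from 5.39 to 6.02 and Pltp from 11.17 to 12.20, and these 3 passed the VMH filter of 5.5069. Fgf21, Bmp8b, Nrg4, Angptl4 and Il6 lay below it.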

How the data were processed

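Total RNA of 12 BAT and 12 VMH samples was measured on Affymetrix arrays with TdT-labelled DNA, per the labels. Each array has a column of deposited log2 signals, spanning 2.1167 to 19.9315. Affymetrix Expression Console 1.1.1 and PLIER 2.0 appear in the submitters' processing notes without a stated role. How arrays were normalized to each other, and on which build, is not given in the sources used here. BAT array medians ran from 4.069 to 4.157, and no further normalization was applied. Precision is limited by the number of arrays.

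Of 72688 features, 30604 carried 1 symbol and 2146 several; 22818 were matched by gene ID to RefSeq GRCm38.p6, which updated 827 symbols and gave the promoters. Group means of the 12 BAT arrays were fitted and compared, two-sided, with limma (version 3.58.1; R version 4.3.3), a step tested on simulated data. The genes, lists, tests and rule for named genes were chosen with earlier results of these data known. Named were the 9 genes, up to 4 genes of a list by the test or smallest p, a fixed set of partners, and the 3 most alike genes per factor. The muscle, macrophage, endothelial and fibroblast scores are mean log2 signals of marker lists.

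Same-numbered BAT arrays did not deviate together throughout: r was above 0.1 in 9 of 18 pairs and ran between -0.772 and 0.39. Every pair among the arrays numbered 3 lay above 0.1, from 0.13 to 0.39. The lowest r was -0.762 among those numbered 1 and -0.772 among those numbered 2. Arrays of different numbers reached 0.812 (control SD array 1 and cKO SD array 2). Replicate number was not used as a pairing in the main fit. No 2 arrays were identical. Alternatives covered normalization, pseudocount, filter, features, prior, arrays fitted, array weights, a replicate block, a muscle covariate and single arrays left out. Leaving out the 2 arrays of lowest Ucp1 was added after the data were seen.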

Additional observations from a re-analysis of the deposited data

How the results depend on the processing

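The count of the 5 tested factors past the threshold was 0 for cKO minus control on HFD, on SD and averaged, and for the interaction, under every alternative run. For HFD minus SD in control mice it was 1 under 5 alternatives and 0 with only the groups compared, array weights, the replicate block, the muscle covariate or without the 2 arrays of lowest Ucp1; without single arrays it ran between 0 and 3. For HFD minus SD in cKO mice it was 0, but 1 after quantile normalization, 1 with only the groups compared, 3 with array weights and 1 without the 2 arrays of lowest Ucp1, and between 0 and 2 without single arrays. The Pltp difference in control mice lay between 1.32 and 1.92 under the other alternatives (limma adjusted p of 0.0353 to 0.157); with the replicate block it was 1.76 (0.0769), and in cKO mice 2.55 (0.152), and the block, under which 0 of all genes passed in control mice, also ended the calls of Edn1, Fgf9, Pecam1, Cldn5, Eng, Cd68 and Itgax. The replicate block is not a pairing by design.

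Small differences turned round. For cKO minus control on SD, array weights gave Nrg4 0.26, Angptl4 -0.11 and Pltp 0.06, and the muscle covariate Nrg4 0.24, Vegfa 0.03 and Pltp 0.12; averaged over diets the covariate gave Nrg4 0.09 and Angptl4 0.14. For HFD minus SD in cKO mice the covariate gave Nrg4 -0.39, Vegfa -0.36, Kdr -0.16 and Gpihbp1 -0.42, array weights Vegfa -0.03, and leaving out the 2 arrays of lowest Ucp1 Nrg4 -0.17 and Vegfa -0.03. In control mice the covariate gave Nrg4 -0.08, Vegfa -0.21 and Klb -0.57, and Klb was -0.06 without the 2 arrays of lowest Ucp1. The covariate gave Fgfr1 -0.04 for cKO minus control on HFD, and array weights gave an Igf1 interaction of -0.30. The causes were not tested.

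Without single arrays, cKO minus control on SD ran from -0.77 to 0.80 for Angptl4, -0.72 to 0.44 for Nrg4, -0.49 to 0.26 for Pltp, -0.39 to 0.11 for Vegfa and -0.26 to 1.27 for Igf1; averaged over diets, -0.53 to 0.05 for Nrg4 and -0.72 to 0.07 for Angptl4; on HFD, -0.25 to 0.08 for Fgf9. HFD minus SD ran from -0.17 to 0.88 for Nrg4, -0.03 to 0.29 for Vegfa and -0.10 to 0.16 for Gpihbp1 in cKO mice, and from -0.06 to 0.87 for Klb in control mice. The interaction ran from -0.41 to 0.10 for Vegfa, -0.78 to 0.38 for Nrg4 and -1.47 to 0.10 for Angptl4.

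Counts over all genes moved more. HFD minus SD in control mice had 132 genes past the threshold. The count was 0 with array weights, the replicate block, the covariate or without the 2 arrays of lowest Ucp1. It was also 0 without control HFD array 1 alone or control SD array 3 alone, and 2716 without control SD array 2. With only the groups compared it was 153, of which 23 were higher and 130 lower. HFD minus SD in cKO mice had 0, 12 after quantile normalization, up to 1183 without single arrays and 8643 with array weights, whose estimation stopped before it converged. For cKO minus control on HFD the count was 0, with up to 191 under array weights and 16 without single arrays. Counts above 0 in other comparisons were 5 or fewer.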
